A study of Mus musculus with 6 samples.

Results

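Apln and Aplnr are the genes of apelin and of its receptor, and the RNA of both was several-fold lower in old than in young mouse hearts. The 2 genes were taken by name from a table of 44200 gene rows, and both were present once. They were chosen with this age comparison already known, so their levels are given here as a description and without a test. RNA was measured by sequencing of heart tissue from male C57BL/6 mice on normal chow. The mice were aged 2 months (young, 3 hearts) or 22 months (old, 3 hearts), and each library was made from an independent biological replicate. No transgene, drug or surgery is named in the labels. The labels' extraction text names another sample type, NRVMs, while the samples themselves are labelled heart tissue.

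Apelin is a secreted peptide, cut from the end of a short precursor, that acts on a G protein-coupled receptor called APJ, the product of Aplnr. Receptor signalling runs through inhibitory G proteins and β-arrestins to kinases and endothelial nitric oxide synthase, and it is known for widening vessels and for strengthening the heart beat. In the heart Aplnr is known mainly from endothelial cells of capillaries and veins and from the endocardium, and at lower levels from cardiomyocytes, while Apln is known from endothelial cells, where it marks growing sprouts and responds to low oxygen. Another peptide, Elabela (Apela), uses the same receptor and is best known from the embryo.

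Apln lies on the minus strand of the X chromosome (ENSMUSG00000037010, GRCm38, chromosome X, 48025146 to 48034853) with 3 exons and an annotated transcript of 3149 bases, of which 231 are coding. Aplnr lies on the plus strand of chromosome 2 (ENSMUSG00000044338, GRCm38, chromosome 2, 85136225 to 85139923), and its main transcript is a single exon of 3699 bases with 1131 coding bases for 377 residues. No other gene of the GENCODE M21 annotation overlaps either gene on either strand, so reads of an overlapping neighbour were not counted for them through that annotation. The coding sequence of Apln, shown because it is the message whose level is followed here, is that of the M21 transcript Apln-201 from the start codon to the last codon before the stop. It encodes 77 residues, and capitals mark the codons of the last 13, which form the peptide known as apelin-13.
Apln: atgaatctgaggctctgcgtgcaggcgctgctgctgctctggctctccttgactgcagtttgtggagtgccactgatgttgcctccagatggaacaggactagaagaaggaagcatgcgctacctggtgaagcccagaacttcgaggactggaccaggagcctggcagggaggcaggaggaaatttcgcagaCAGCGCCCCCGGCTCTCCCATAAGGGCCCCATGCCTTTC

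The receptor gene was the more abundant of the pair and fell further. CPM (read counts scaled to library size with TMM factors, the trimmed mean of M values) are given with 95% exact Poisson intervals that cover counting error only. In young hearts Aplnr had 720, 591 and 830 counts, or 49.5 (45.9 to 53.2), 40.1 (36.9 to 43.5) and 53.4 (49.9 to 57.2) CPM. In old hearts it had 152, 119 and 105 counts, or 9.32 (7.89 to 10.9), 8.44 (6.99 to 10.1) and 7.79 (6.37 to 9.43) CPM. The lowest young library was 4.30 times the highest old one, and the ratio of a young to an old library lay between 4.30 and 6.86 over the 9 possible pairs. The intervals of young 2 did not meet those of young 1 and young 3, whereas the 3 old intervals overlapped each other. Mean levels were 47.7 ± 6.85 CPM in young and 8.52 ± 0.764 CPM in old hearts (SD, n = 3 each). The fitted log2 fold change of old over young was −2.48 ± 0.16 (SE), a level 5.59-fold lower, or 17.9% of the young level.

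The ligand gene was low in every library and lower in old hearts. Apln had 112, 103 and 119 counts in young hearts, or 7.70 (6.34 to 9.26), 6.99 (5.70 to 8.47) and 7.66 (6.35 to 9.17) CPM. Old hearts gave 27, 44 and 22 counts, or 1.66 (1.09 to 2.41), 3.12 (2.27 to 4.19) and 1.63 (1.02 to 2.47) CPM. The young libraries lay close together, and old 2 stood above old 1 and old 3 without reaching the young range. Young-to-old ratios over the 9 pairs ranged from 2.24 to 4.71. The means were 7.45 ± 0.400 and 2.14 ± 0.853 CPM (SD, n = 3 each), and the fitted log2 fold change was −1.80 ± 0.28 (SE), a level 3.49-fold lower. Without old 2 it was −2.18. The coefficient of variation over young hearts was 5.37% for Apln and 14.4% for Aplnr; over old hearts it was 39.9% and 8.97%. With 93 counts over the 3 old libraries, differences among old hearts in Apln rest on few reads.

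**Figure D1:**
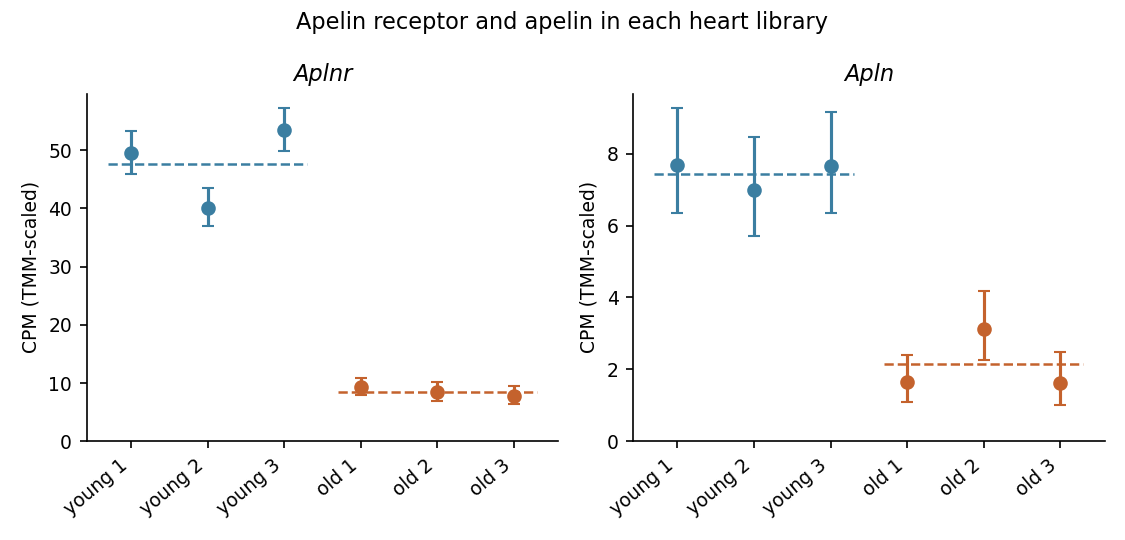
TMM-scaled CPM (linear axis from 0) of Aplnr and Apln in each of the 6 libraries. Points are libraries, bars are 95% exact Poisson intervals and dashed lines are the means of an age. All 3 old libraries lie below all 3 young ones in both genes, and old 2 is the highest old library for Apln.

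Per unit of length the receptor remained above its ligand at both ages. On the authors' FPKM scale Aplnr had 12.4 ± 1.73 in young and 2.20 ± 0.185 in old hearts, and Apln 2.27 ± 0.117 and 0.650 ± 0.265 (SD, n = 3 each). Among the 13170 genes of the FPKM table, Aplnr stood at rank 3098 by its young mean and rank 9493 by its old mean, and Apln went from rank 9280 to rank 12915. In level, Aplnr in old hearts thus came to lie near Apln in young hearts. The FPKM ratio of receptor to ligand was 5.47, 4.88 and 5.94 in young and 4.79, 2.30 and 4.06 in old libraries. The old ratios were all below the young ones, that of old 1 by little, and old 2, the library with the most Apln, had the lowest. Across the 6 libraries log2 CPM of the 2 genes had a Pearson r of 0.948, and their deviations from the age means had an r of 0.102 (6 libraries, which share their ages).

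Both falls were among the larger ones in the table. Of 14413 genes tested, 30 (0.208%) had a fitted log2 fold change of −2 or lower. Aplnr was at rank 10 among all falls, and at rank 5 among the 13605 genes with a mean of at least 1 CPM; Apln was at rank 55 and rank 34. All 3 old libraries lay below all 3 young ones for both genes, as they did for 18.4% of the genes tested. Because these genes were chosen from this comparison, nothing is read from those shares. The median log2 fold change over all genes tested was 0.02.

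**Figure D2:**
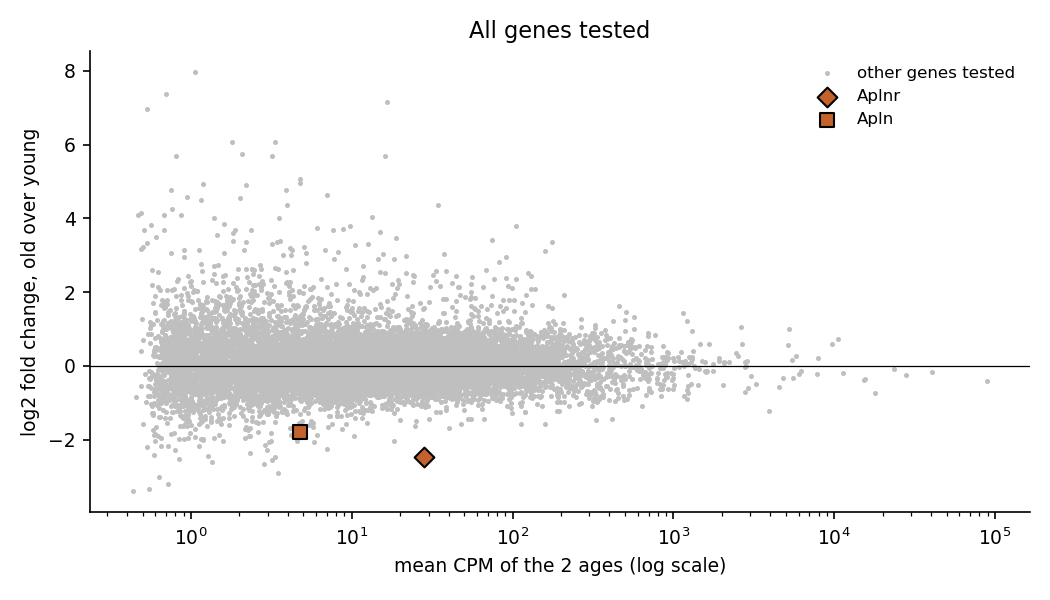
Log2 fold change of old over young against the mean CPM of both ages (log axis) for the 14413 genes tested, each a grey point. Aplnr (diamond, −2.48) and Apln (square, −1.80) lie at the lower edge of the genes of their abundance.

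The other ligand of the receptor was at the limit of detection. The identifier that GENCODE M21 assigns to Apela (ENSMUSG00000079042) carries the name Trim61 in the deposited table and had 0, 0 and 5 counts in young and 3, 1 and 1 in old libraries. Reads on that row cannot be given to one gene or the other, and at this depth no difference was detectable.

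Enzymes that cut apelin were measured next, and 2 of 5 tested genes fell. Over all genes tested, 917 (6.36%) were lower and 1257 (8.72%) higher in old hearts at an adjusted p under 0.05 (edgeR's quasi-likelihood test, Benjamini-Hochberg over all genes tested, used for every adjusted p that follows). Furin encodes a proprotein convertase that cleaves the apelin precursor. It had 74.8, 87.4 and 70.7 CPM in young and 43.9, 59.6 and 55.1 CPM in old libraries, without overlap (log2 fold change −0.56 ± 0.15, edgeR adjusted p = 0.0385). Mme encodes neprilysin, a membrane peptidase that degrades apelin. It had 8.32, 7.39 and 8.05 CPM in young and 4.11, 5.32 and 4.53 CPM in old libraries, again without overlap (−0.77 ± 0.19, edgeR adjusted p = 0.0290). Ace, the angiotensin-converting enzyme gene, had a log2 fold change of −0.02 ± 0.15 (edgeR adjusted p = 0.956), and Pcsk7, another convertase gene, one of 0.32 ± 0.15 (edgeR adjusted p = 0.187). The row named Klkb1 had 1 count in all and was not tested. Leaving out young 1, 2 or 3 or old 3 ended the call of Furin and of Mme (edgeR adjusted p up to 0.166), and Furin also missed the threshold with FPKM (limma adjusted p = 0.0579, pseudocount 1).

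Genes whose products couple and silence the receptor were examined next. Of 23 tested genes for G protein subunits, their regulators, receptor kinases and arrestins, 1 was higher and 1 lower, shares of 4.35% each that are near those over all genes, and the list's median was 0.01 (log2). At an unadjusted p under 0.05 there were 2 higher and 6 lower, and DESeq2, or edgeR with no filter on low counts, called 1 higher and 4 lower of 24. No share over all genes is given for these further counts. Arrb2, a β-arrestin that uncouples and internalises receptors, rose from 16.6 ± 2.64 to 27.9 ± 5.36 CPM (0.75 ± 0.18, edgeR adjusted p = 0.0246). Arrb1, the other β-arrestin, had 35.2 ± 5.02 and 37.1 ± 3.74 CPM (edgeR adjusted p = 0.759). Gna12, a G protein α subunit, fell from 104 ± 1.92 to 74.9 ± 7.13 CPM (−0.47 ± 0.12, edgeR adjusted p = 0.0338). Gnai2, the most familiar inhibitory α subunit, had 222 ± 12.4 and 168 ± 9.09 CPM with no overlap and did not pass (−0.40 ± 0.12, edgeR adjusted p = 0.0591). Agtrap, a binding partner of the angiotensin receptor AT1, had −0.47 ± 0.14 and did not pass (edgeR adjusted p = 0.0539). The calls of Arrb2 and Gna12 ended without young 1, 2 or 3 or old 2, and that of Gna12 also without old 3 (edgeR adjusted p up to 0.134). Without old 1 the list had 4 higher and 6 lower.

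Among intracellular effectors 2 of 30 tested genes rose (6.67%) and 3 fell (10%), near the 8.72% and 6.36% over all genes. The list's median was −0.08 (log2). Akt1, a kinase gene of the phosphoinositide 3-kinase pathway, had 141, 137 and 138 CPM in young and 96.3, 74.5 and 85.8 CPM in old libraries (−0.70 ± 0.13, edgeR adjusted p = 0.0116). Plcb1, a phospholipase C gene, fell by 0.86 on the log2 scale. Slc8a1, the sodium-calcium exchanger gene, rose from 14.1 ± 2.83 to 31.6 ± 9.36 CPM (1.16 ± 0.24, edgeR adjusted p = 0.0134), and Prkcd, a protein kinase C gene, rose by 0.86 ± 0.21. Nos3, the endothelial nitric oxide synthase gene, had 65.3, 70.0 and 63.0 CPM in young and 53.6, 120 and 96.1 CPM in old libraries, so the old hearts lay on both sides of the young (0.45 ± 0.25, edgeR adjusted p = 0.242). The calls of Akt1, Plcb1, Slc8a1 and Prkcd ended without young 1 or young 2, those of Akt1, Plcb1 and Prkcd also without young 3, those of Slc8a1 and Prkcd without old 3 and that of Prkcd without old 2 (edgeR adjusted p up to 0.111). Without old 1 the list held 15 calls, and with FPKM and a pseudocount of 1 Plcb1 had −0.44 (limma adjusted p = 0.0575).

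Genes of endothelial transcription and uptake that have been linked to apelin signalling showed 2 falls (8.33%) and 1 rise (4.17%) among 24 tested. Over all genes 6.36% fell and 8.72% rose. The list's median was 0.02. Cdh5, the gene of VE-cadherin of endothelial junctions, fell most. Its young libraries had 347, 380 and 339 CPM and its old ones 177, 177 and 180 CPM (−0.996 ± 0.12, edgeR adjusted p = 0.00235). Mef2c, a transcription factor gene, fell from 47.1 ± 4.20 to 31.5 ± 4.10 CPM (−0.58 ± 0.14, edgeR adjusted p = 0.0261), and Fgfr1, a fibroblast growth factor receptor gene, rose by 0.54 ± 0.15 (edgeR adjusted p = 0.0416). Fabp4, a fatty acid carrier of capillary endothelium, had 1395 ± 184 and 1344 ± 37.6 CPM (−0.05 ± 0.14, edgeR adjusted p = 0.819). Klf2, a flow-responsive factor gene, had 98.5 ± 21.1 and 109 ± 40.4 CPM (edgeR adjusted p = 0.743). The calls of Mef2c and Fgfr1 ended without any 1 library other than old 1, and that of Fgfr1 also with FPKM (limma adjusted p = 0.0584, pseudocount 1). The list held 7 calls without old 1 and 1 without old 3 or any of the young libraries.

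**Figure D3:**
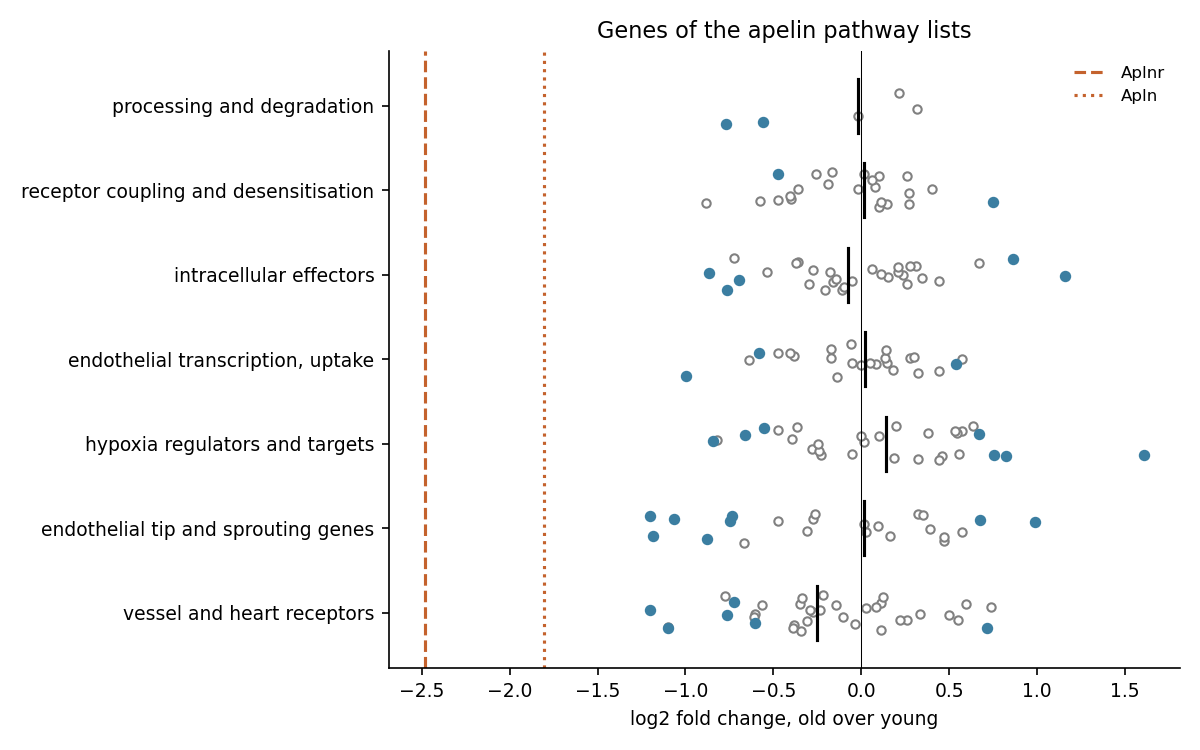
Log2 fold change of old over young for the tested genes of the 7 apelin pathway lists. Filled points passed (edgeR adjusted p under 0.05), open points did not, black bars are list medians, and the orange lines give Aplnr (−2.48) and Apln (−1.80), which lie below the genes of every list shown.

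Regulators and targets of the hypoxia response, to which Apln belongs as a known target of hypoxia-inducible factors, were called in both directions. Of 30 tested genes 4 rose (13.3%) and 3 fell (10%), and the list's median was 0.14 (log2). Ankrd37 had 2.27, 3.53 and 1.93 CPM in young and 8.52, 6.95 and 8.09 CPM in old libraries (1.61 ± 0.26, edgeR adjusted p = 0.00582). P4ha1, a collagen prolyl hydroxylase gene, rose from 28.8 ± 0.331 to 51.0 ± 6.68 CPM (0.82 ± 0.13, edgeR adjusted p = 0.00602), and Egln3, an oxygen sensor gene, by 0.67 ± 0.15. The transcription factor gene Bhlhe40 rose by 0.75 (0.44 without old 1), and the glycolysis gene Pgk1 (−0.85) and the oxygen sensor gene Egln1 (−0.55) fell. Hk2, a hexokinase gene, fell from 117 ± 14.8 to 74.2 ± 5.13 CPM (−0.66 ± 0.14, edgeR adjusted p = 0.0150). Vegfa, the vessel growth factor gene, had 414 ± 59.8 and 615 ± 118 CPM (0.57 ± 0.18, edgeR adjusted p = 0.0588). The factor genes Hif1a (−0.23 ± 0.14, edgeR adjusted p = 0.303) and Epas1 (−0.37 ± 0.12, edgeR adjusted p = 0.0724) did not pass. Ankrd37 and P4ha1 passed with each library left out in turn. Egln3 lost its call without young 1, 2 or 3, Hk2 without young 1 or 3 or old 3, Bhlhe40 without young 1, 2 or 3 or old 3, and Pgk1 and Egln1 without any 1 library other than old 1 (edgeR adjusted p up to 0.170). Both shares are near those over all genes. Without old 1 the list had 8 rises and 9 falls and a median of 0.06, and it held 3 calls or fewer without old 3 or any of the young libraries.

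The 250 bases before the annotated Apln start were searched for core motifs of vessel and hypoxia factors. They are shown because Apln is the member whose control by such factors is well known. Of the members, Apln was found in the RefSeq promoter table of GRCm38.p6 and Aplnr was not. The window is chrX:48034854-48035103, read 5′ to 3′ on the minus strand, and capitals mark matches to the E-box CANNTG.
Apln promoter: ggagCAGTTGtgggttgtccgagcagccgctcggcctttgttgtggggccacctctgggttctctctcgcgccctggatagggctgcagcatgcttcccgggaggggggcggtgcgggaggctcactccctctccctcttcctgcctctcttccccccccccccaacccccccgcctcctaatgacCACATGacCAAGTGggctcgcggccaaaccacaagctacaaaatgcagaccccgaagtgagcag
Absent on both strands were the hypoxia-inducible factor cores ACGTG and GCGTG, the Krüppel-like factor site CCACCC and the FOXO site GTAAACA. These are held by 16.6%, 28.2%, 28.1% and 3.17% of the 32851 promoter windows of that length. The E-box occurred 3 times, at 246, 64 and 56 bases before the start, in a class of letters that 66.2% of windows hold, and the ETS core GGAA 3 times, which 93.4% hold. The window had 65.2% G and C, against a median of 52.4% over all windows. Matches and absences describe the letters in this window only and say nothing of binding in these hearts. The gene itself and bases further upstream were not searched.

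Sprouting endothelium, in which Apln is known to be high, was examined through 23 other tested genes of endothelial tips. Of these 6 (26.1%) fell and 2 (8.7%) rose, against 6.36% and 8.72% over all genes. The ages did not overlap in the list's mean log2 CPM. Young 1, 2 and 3 had 4.98, 5.06 and 5.05, against 4.88, 4.86 and 4.84 for old 1, 2 and 3. The exact permutation p for this mean was 0.1, the smallest possible. The list's median log2 fold change was 0.02. That median was −0.12 over genes with at least 1 CPM in 3 libraries, −0.14 and −0.15 with FPKM, −0.18 without old 1 and −0.11 without old 2, so its sign depends on the setting. Nrp2, a neuropilin of veins and lymphatics, had 56.2, 57.8 and 47.5 CPM in young and 25.2, 21.5 and 24.3 CPM in old libraries (−1.18 ± 0.14, edgeR adjusted p = 0.00179). The basement membrane genes Nid2 (−1.07 ± 0.19), Col4a1 (−0.87 ± 0.16) and Lamc1 (−0.75 ± 0.21), the netrin receptor gene Unc5b (−0.73 ± 0.15) and the chemokine receptor gene Cxcr4 (−1.20 ± 0.33) were the other genes that fell. Itga5, an integrin of the fibronectin receptor, rose from 79.2 ± 3.94 to 127 ± 6.91 CPM (0.68 ± 0.12, edgeR adjusted p = 0.00849), and the placental growth factor gene Pgf rose by 0.99 ± 0.23. The tip markers Esm1 (0.863 ± 0.320 and 1.19 ± 0.773 CPM), Angpt2 (3.87 ± 1.05 and 5.77 ± 2.52 CPM) and Dll4 (31.6 ± 0.763 and 35.4 ± 5.05 CPM) did not pass. Nrp2 passed with each library left out. Nid2 and Col4a1 lost their calls without young 2, Unc5b and Itga5 without young 1, 2 or 3, and Lamc1, Cxcr4 and Pgf without young 1 or 3, old 3 and, for some, young 2 or old 2 (edgeR adjusted p up to 0.165). The list held 13 calls without old 1, 5 without old 3 and 2 or 3 without 1 of the young libraries.

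Aplnr was compared with 36 other tested genes of vessel and heart receptors, all G protein-coupled receptors except the accessory protein genes Ramp1, Ramp2 and Ramp3, none of which passed. Of these 5 (13.9%) fell and 1 (2.78%) rose, against 6.36% and 8.72% over all genes. Their log2 fold changes ran from −1.20 to 0.74, all above that of Aplnr. Their median was −0.25, against 0.02 over all genes tested. Agtr1a, the angiotensin receptor gene, whose product is among the closest relatives of APJ, had 18.1 ± 1.82 and 19.6 ± 2.03 CPM, and its ages overlapped (0.11 ± 0.15, edgeR adjusted p = 0.637). Adgrl2, an adhesion receptor gene, fell from 46.7 ± 5.96 to 30.8 ± 1.45 CPM (−0.60 ± 0.14, edgeR adjusted p = 0.0205). Calcrl, the receptor gene for adrenomedullin and the calcitonin gene-related peptide, fell from 28.8 ± 2.83 to 17.4 ± 4.25 CPM (−0.73 ± 0.19, edgeR adjusted p = 0.0307). Gprc5b (−1.10 ± 0.31), Cxcr4 and the adrenergic receptor gene Adra1b (−0.76 ± 0.22) were the other genes that fell. Lpar6, a lysophosphatidic acid receptor gene, rose from 21.4 ± 2.60 to 35.1 ± 4.95 CPM (0.72 ± 0.16, edgeR adjusted p = 0.0176). Each of these calls ended without young 1, young 2 or old 3, and most also without young 3 (edgeR adjusted p up to 0.165). The list held 16 calls without old 1.

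The level of endothelial cells in the tissue was read from 28 markers, all tested. In bulk tissue fewer cells of a type and less RNA per cell cannot be told apart. Of these markers 5 (17.9%) fell and 0 rose by edgeR, against 6.36% and 8.72% over all genes. At an unadjusted p under 0.05 these counts were 9 and 0, and DESeq2 called 6 and 0. For the unadjusted and DESeq2 counts no share over all genes is given, so they cannot be set against the whole table. Their log2 fold changes ran from −0.996 to 0.45 around a median of −0.23. Besides Cdh5, the phosphatase gene Ptprb (252 ± 25.4 to 128 ± 11.2 CPM, −0.98 ± 0.14, edgeR adjusted p = 0.00339), the transcription factor gene Sox7 (−0.74 ± 0.17), Pecam1, the gene of the adhesion molecule CD31 (275 ± 25.2 to 183 ± 35.0 CPM, −0.59 ± 0.16), and the receptor gene Tie1 (−0.56 ± 0.16) fell. Kdr, the main receptor gene for vascular endothelial growth factor, had 203 ± 11.9 and 168 ± 4.78 CPM (edgeR adjusted p = 0.150), and Emcn 45.3 ± 4.08 and 40.1 ± 3.82 CPM (edgeR adjusted p = 0.387). Cdh5 and Ptprb passed with each library left out. Sox7 lost its call without young 1 or 3 or old 3, Tie1 without young 1, 2 or 3 or old 3, and Pecam1 without any 1 library other than old 1 (edgeR adjusted p up to 0.181); Tie1 also missed the threshold with FPKM (limma adjusted p = 0.0575, pseudocount 1). Without old 1, whose endothelial level was the lowest, 7 markers were higher and 8 lower.

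Set against these markers, both apelin genes still lay lower in old hearts. The mean log2 CPM of the markers was 6.70, 6.75 and 6.66 in young and 6.32, 6.67 and 6.54 in old libraries, with an overlap between old 2 and young 3. The difference in this mean was −0.19 (exact two-sided permutation p = 0.2, where 3 against 3 allow no p under 0.1), and it was −0.10 without old 1 and −0.27 without old 2. Aplnr minus this mean was −1.07, −1.42 and −0.92 in young and −3.08, −3.57 and −3.55 in old libraries, a difference of −2.27. Apln minus this mean was −3.73, −3.92 and −3.70 in young and −5.48, −4.97 and −5.72 in old libraries, a difference of −1.61. Measured against each marker alone, Aplnr was lower in all 3 old than in all 3 young libraries for 28 of 28 markers. The differences were 1.47 to 2.83 log2 units. For Apln this held for 27 of 28 markers. These comparisons all reuse the Aplnr and Apln values known when the genes were chosen. They are a description and not separate support. Per 1000 CPM of summed endothelial markers, Aplnr came to 11.5 ± 2.16 CPM in young and 2.38 ± 0.457 CPM in old hearts, and Apln to 1.80 ± 0.177 and 0.582 ± 0.186 CPM (SD, n = 3 each). With any 1 library left out the difference relative to the markers stayed between −2.43 and −2.16 for Aplnr and between −1.82 and −1.45 for Apln. On the log2(FPKM + 1) scale it was −1.87 for Aplnr and −0.81 for Apln.

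**Figure D4:**
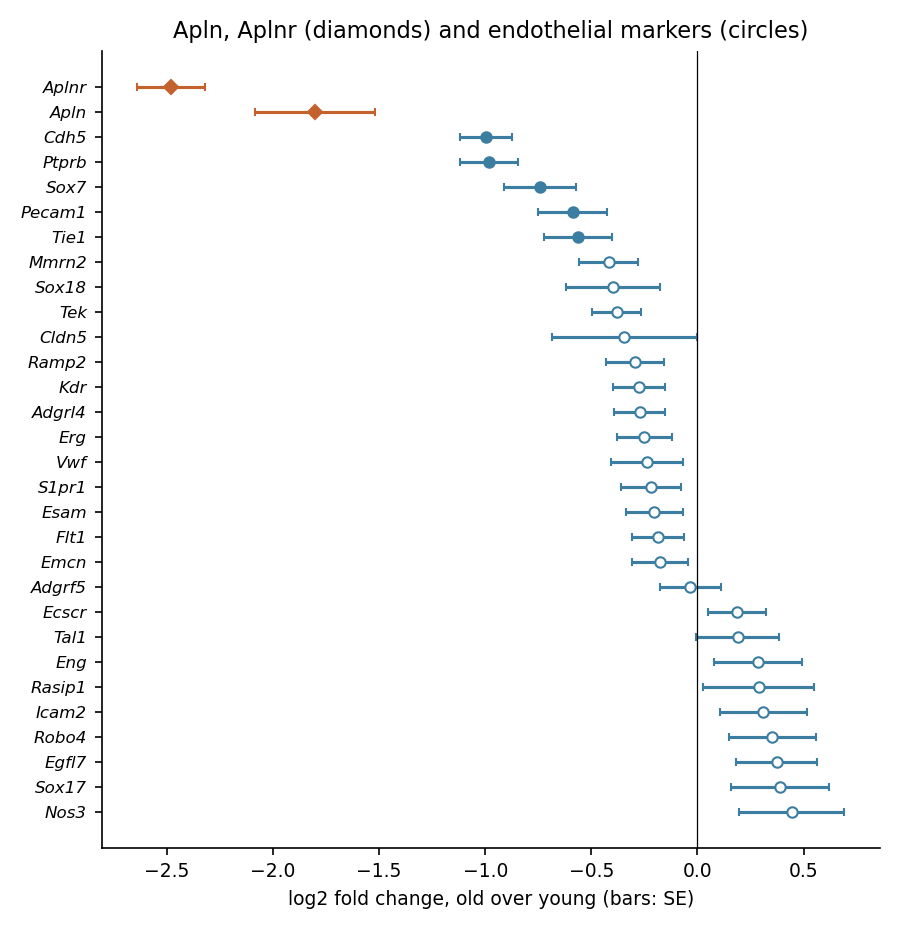
Log2 fold change of old over young, with SE bars, for Apln and Aplnr (orange diamonds) and 28 endothelial markers (blue circles, filled where the edgeR adjusted p was under 0.05). The markers range from −0.996 to 0.45, and both diamonds lie to the left of all of them.

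Markers of other cells of the heart were read from the same libraries. The 15 cardiomyocyte markers were all tested, with none at 0. They summed to 69490 to 78190 CPM in young and 58640 to 65700 CPM in old libraries. Myh6 was a large part of these sums, with means of 22616 and 13464 CPM. These sums, of which Myl7 was a very small part, did not overlap. Mean log2 CPM of the markers was 10.8 ± 0.125 and 10.7 ± 0.185 (SD, n = 3 each, exact permutation p = 0.3), and the ages overlapped. Each marker has the same weight in this mean, so the very uneven Myl7 moves it strongly. A mean without Myl7 was not computed, so the overlap and this p cannot be read as unchanged cardiomyocyte markers. Of these markers 6 (40%) were lower and 1 (6.67%) higher, against 6.36% and 8.72% over all genes. The 14 fibroblast markers summed to 2714 to 3737 CPM in young and 2041 to 3728 CPM in old libraries, with 2 lower (14.3%). The 11 mural cell markers summed to 1236 to 1497 and 889.8 to 1335 CPM, with 2 lower (18.2%). Of 14 leukocyte markers 12 were tested, with 4 higher (33.3%). They summed to 338 to 414 CPM in young and 500.1 to 742 CPM in old libraries. Among the cardiomyocyte markers, Myl7 had 2, 203 and 30 counts in young and 882, 29 and 129 counts in old libraries. The part of these cell types in the level of Apln and Aplnr was not tested.

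Marker lists of the vessel types known to hold Aplnr were read in the same way. The 10 tested capillary markers had a mean log2 CPM of 7.85 ± 0.12 in young and 7.68 ± 0.05 in old hearts (SD, n = 3 each, exact two-sided permutation p = 0.1, the smallest possible), a difference of −0.17 that was −0.11 without young 2. In this list Aqp1 alone passed, falling from 863 ± 35.8 to 539 ± 18.6 CPM. The 6 tested venous markers had means of 4.34 ± 0.29 and 4.40 ± 0.21 (exact permutation p = 0.9). The difference of 0.06 ran from −0.07 without young 1 to 0.21 without young 2. Summed CPM of these markers did not overlap, at 266 to 329 in young and 229 to 261 in old libraries. Among them Ephb4, a receptor of vein identity, fell from 99.8 ± 6.83 to 67.7 ± 6.50 CPM, and Vcam1, an adhesion molecule gene, rose from 11.8 ± 0.233 to 24.2 ± 4.73 CPM. The 7 endocardial markers had means of 4.51 ± 0.16 and 4.14 ± 0.42 (exact permutation p = 0.2), with Hand2 lower. The difference of −0.37 was −0.14 without old 2 and −0.56 without old 1. Their summed CPM was 206 to 228 in young and 130 to 203 in old libraries. These single genes were named after their values were seen. Vcam1 passed with each library left out, whereas Aqp1 lost its call without young 1 or 2, and Ephb4 and Hand2 without any single young library or old 3 (edgeR adjusted p up to 0.115).

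Genes beside the members did not pass in either direction. Of the 3 nearest protein-coding genes on each side of Aplnr, Tnks1bp1, at a distance of 63177 bases, had a log2 fold change of −0.08 ± 0.14 (edgeR adjusted p = 0.738), and Ssrp1, a histone chaperone gene, 0.36 ± 0.12 (edgeR adjusted p = 0.0788). Lrrc55, the nearest at 22411 bases, had 45 counts in all, P2rx3 48, and Olfr987 and Olfr988 none, and these were not tested. Around Apln, the phosphatase gene Ocrl, at 59278 bases, had 0.20 ± 0.16 (edgeR adjusted p = 0.425), Zdhhc9 −0.15 ± 0.14, Smarca1 0.57 ± 0.47 and Sash3 0.05 ± 0.37 (edgeR adjusted p = 0.428 to 0.942 for these last 3). Xpnpep2 had 9 counts and Actrt1 none.

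The genes whose levels over the 6 libraries were most like those of the members were found by Pearson's r of log2 CPM among 12415 other named genes with a mean of at least 1 CPM. This measure does not use the size of a change, so genes with small falls can rank high. For Aplnr the 5 highest were Dhrs11, Mdga1, Cops7b, Eml2 and Fgd4, with r from 0.998 to 0.995. Mdga1, a gene of a membrane-anchored adhesion protein, had the largest fall of these, from 6.26 ± 0.788 to 1.96 ± 0.098 CPM (−1.67 ± 0.23), and Fgd4 had −0.91 ± 0.16. For Apln they were Cstf2t, Med25, Tsc22d4, Tspan13 and Camk1, with r from 0.999 to 0.994. Tspan13, a tetraspanin gene, fell from 99.0 ± 4.03 to 55.2 ± 9.69 CPM, and Tsc22d4 from 124 ± 3.41 to 73.1 ± 8.29 CPM. For Aplnr 18 genes (0.145%) and for Apln 15 (0.121%) had an r above 0.99, and the members were at ranks 341 and 231 of each other's lists. The libraries of each age share that age, so these values are a description.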

How the data were processed

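Heart RNA of 3 young and 3 old mice was sequenced; libraries held 13673856 to 15583364 counts. Per the submitters' processing notes, HISAT2, featureCounts of Subread and GRCm38.p6 were used; their versions, the gene annotation, and how strand and multi-mapped reads were treated are not stated there. The authors deposited whole-number read counts per gene, and FPKM (scaled to gene length and depth) for 13170 genes. Here 571 rows without a name (0.295% to 0.368% of counts) were left out, low counts were removed by filterByExpr, and libraries were scaled by TMM. edgeR 4.0.16 (R 4.3.3) tested the age difference with its quasi-likelihood method, with Benjamini-Hochberg adjustment over 14413 genes at 0.05. The SE is the absolute log2 fold change over the square root of F. Log2 CPM used a prior count of 2. Alternatives used DESeq2 1.42.0 and limma 3.58.1. The edgeR step was tested on simulated data.

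The members and gene lists were chosen with earlier results of these data known. Named were all tested genes of the processing list, the 3 smallest p of each other pathway list and of the endothelial markers, the 5 genes most like each member and the 3 nearest coding genes on each side. Other genes of the lists were named after their values were seen. Some genes that this rule names are not reported here. Nothing in the labels pairs animals across ages. In the first principal component (56% of variance) old 1 (15) lay nearer to the young libraries (−38.3 to −33.4) than old 2 and old 3 did (45.9 and 48).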

Additional observations from a re-analysis of the deposited data

How the results depend on the processing

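The log2 fold change of Aplnr stayed between −2.60 and −2.42 and that of Apln between −2.18 and −1.64 with any 1 library left out, and both were lower in old hearts under every alternative run. On the scale of log2(FPKM + 1), which shrinks ratios of low values, they were −2.06 and −0.998. The number of genes that passed was 539 to 5570 with 1 library left out, against 2174. Counts of passing genes ranged with 1 library left out from 0 to 3 for processing and degradation, 0 to 10 for coupling and desensitisation, 0 to 15 for effectors, 1 to 7 for endothelial transcription and uptake, 2 to 17 for hypoxia, 2 to 13 for tip genes, 0 to 16 for receptors and 2 to 15 for endothelial markers. Without a filter on low counts the coupling list had 5 and the hypoxia list 11 passing genes; with DESeq2 these were 5 and 11, and 5 in the endothelial transcription list. On the FPKM scale the processing list had 0 with either pseudocount (1 or 0.1), but only 3 of its 5 genes were tested there, without Mme. The receptor list had 3 with 0.1.

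Of 53 named genes that passed, 13 passed under every alternative run that tested them. Among these, Mdga1 and Fgd4 were tested in 11 runs and the rest in 13. The other 40 lost the call in at least 1, most often without a young library (38 without young 1), and 0 lost it without old 1. The small values of Ace (−0.10 to 0.11 with 1 library left out, above 0 without young 2 or old 2) and Sash3 (−0.26 to 0.27, below 0 without young 2 or old 1) changed sign. With the replicate number as a block, 1774 genes passed, 1 in the processing list, and Aplnr had −2.48 and Apln −1.84; 8 named genes lost the call (Bhlhe40, Cops7b, Cstf2t, Eml2, Fgfr1, Gna12, Mme and Pecam1; edgeR adjusted p = 0.053 to 0.0659). Deviations from the age means had an r of −0.09, −0.07 and 0.03 between libraries of the same number. Pairs of unlike number were not compared, so these values do not decide whether libraries of the same number were paired. Apln had 22 to 44 counts per old library, which limits its precision there.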

Other observations

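Markers of lymphatic vessels had higher means in old hearts. The mean log2 CPM of 6 tested lymphatic markers was 3.04, 3.09 and 3.24 in young and 3.59, 3.47 and 3.61 in old libraries, without overlap (exact permutation p = 0.1, two-sided, the lowest possible here), although 0 of the 6 passed by edgeR (2 at an unadjusted p under 0.05). The 11 arterial markers had means of 4.38 ± 0.10 and 4.42 ± 0.06 (SD, n = 3 each, exact permutation p = 0.5), and the difference of 0.04 ran from −0.01 without young 1 to 0.07 without young 3. Efnb2, an ephrin of arteries, fell from 40.8 ± 5.32 to 24.5 ± 1.53 CPM (−0.74 ± 0.14, edgeR adjusted p = 0.0105, and 0.061 without young 1), and its venous partner Ephb4 fell as well (−0.56 ± 0.13, edgeR adjusted p = 0.0222). Of 12 tested leukocyte markers 4 rose (33.3%, against 8.72% over all genes) and 8 did not pass. C1qa, a complement gene of macrophages, rose from 56.6 ± 4.69 to 132 ± 8.30 CPM, and Ptprc, the gene of the leukocyte antigen CD45, from 9.47 ± 0.443 to 22.7 ± 3.64 CPM. C1qb (0.91) and the neutrophil gene S100a8 (3.06, at 0.337 ± 0.183 and 2.87 ± 1.41 CPM) were the others. C1qb lost its call without young 1 (edgeR adjusted p = 0.058), and the other 3 passed with each library left out. The macrophage markers Adgre1 (−0.11), Csf1r (0.10), Mrc1 (0.32) and Lyz2 (0.41) and the B cell marker Cd79a (−0.14) did not pass. These genes were named after their values were seen.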
